A study of Gallus gallus with 8 samples.

Results

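Corneous beta-proteins, formerly called beta-keratins, are small structural proteins of reptiles and birds. A central stretch of each folds into beta-sheets that assemble into stiff filaments, and the proteins harden scales, claws, beaks and feathers. Their genes form families of similar copies, and chicken copies are commonly sorted into scale, claw, feather and keratinocyte groups. The count files give such copies names that start with CBP and end in -S, -C, -K or -F, and they do not spell out these endings. The members described here are all features whose name starts with CBP and ends in -S (21 features) or -C (14 features), 35 of 24902 features in all. They were chosen by name and not by their counts.

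RNA was sequenced from primary chicken skin cells in 8 libraries. They comprised 3 skin equivalents, in which keratinocytes differentiated in a layered culture, 1 library of keratinocytes before confluence, 1 library of confluent fibroblasts and 3 confluent keratinocyte monolayers. No transgene or agent is named for any group, and the sources used here do not give the strain or age of the birds. Library titles hold the codes 20, 34 and 56 in replicates 1, 2 and 3 of the skin equivalents and of the monolayers, and 20 in the subconfluent library. The monolayer titles also hold a d number of 8, the title of skin equivalent 1 one of 7, and the letters wo stand in replicates 2 and 3 of both groups, with no meaning given. Whether replicates are separate birds or separate dishes is not stated, and p-values therefore describe the spread among these libraries, which may be technical.

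Gene counts per library ranged from 27329706 to 36728801, and 3 counts corresponded to 0.0807 to 0.117 CPM (the count divided by the library size, scaled by TMM over the 8 libraries). The labelled cell types were checked against marker names. The 17 names taken as markers of differentiated keratinocytes summed to 80639, 105176 and 113965 CPM in skin equivalents 1 to 3, 1698 CPM in subconfluent keratinocytes, 4.40 CPM in fibroblasts and 251 to 710 CPM in monolayers. Single names did not all follow this sum. By the edgeR test described below, skin equivalents were called higher than monolayers for LOR1-EDC, LOR2-EDC, 7 of 7 Krt9L names and 3 of 6 tested Krt78L names. For 1 Krt78L name they were called lower. Of all features tested, 25.9% were called higher and 23.6% lower. The 7 basal keratin names summed to 20851, 29557 and 23445 CPM in skin equivalents 1 to 3, 40500.2 CPM in subconfluent keratinocytes, 5.33 CPM in fibroblasts and between 10170 and 13878 CPM in monolayers. Marker symbols of fibroblasts and of other cell types have no match among the 143 features that carry a name, so the share of such cells in a skin equivalent is not analysed here.

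In skin equivalents both families were present in each of the 3 libraries. In monolayers they had few counts, 18 to 79 for the -S and 6 to 35 for the -C names. The -S names summed to 77.7, 8127 and 584 CPM in skin equivalents 1 to 3, against 2.66, 0.791 and 0.515 CPM in monolayers 1 to 3. For the -C names the sums were 349, 2203 and 341 CPM in skin equivalents 1 to 3, against 1.18, 0.205 and 0.172 CPM in monolayers 1 to 3. Every skin equivalent thus lay above every monolayer in both sums, while skin equivalent 2 lay far above the other two. The mean of the -S sum was 2929.6 ± 4508 CPM in skin equivalents and 1.32 ± 1.17 CPM in monolayers (SD, n = 3 each), and that of the -C sum was 964 ± 1073 CPM in skin equivalents and 0.518 ± 0.572 CPM in monolayers (SD, n = 3 each). Without skin equivalent 2 the skin equivalent means were 331 CPM for -S and 345 CPM for -C. In bulk RNA, fewer cells that express a gene and less RNA per cell cannot be told apart.

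**Figure D1:**
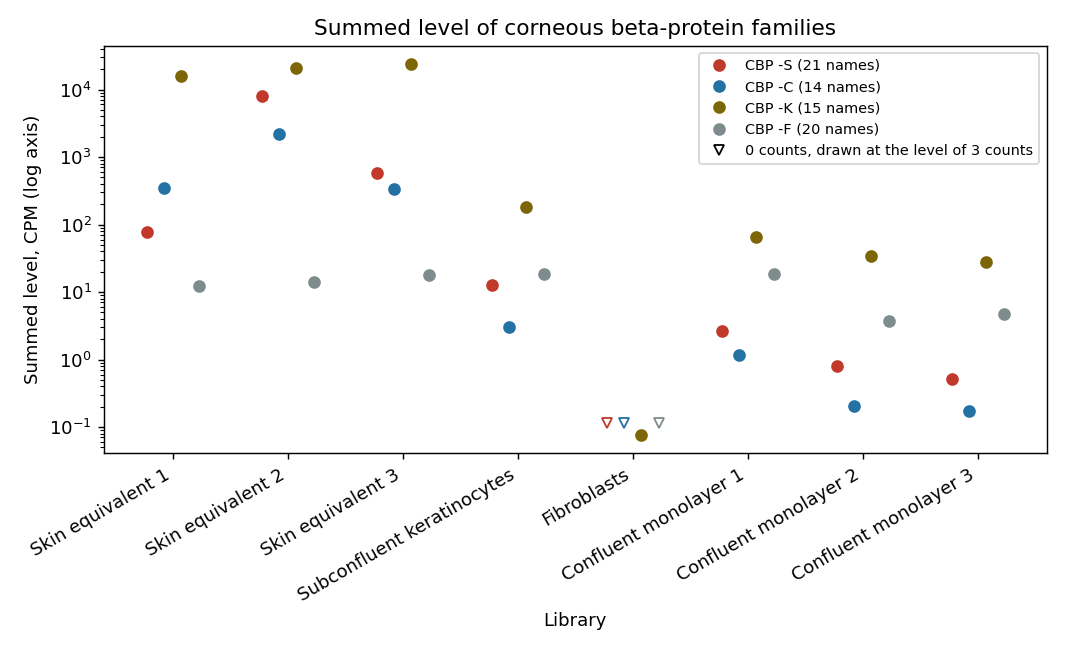
Summed level in CPM (log axis) of the 4 corneous beta-protein families in each library, with 1 point per family and open triangles at the level of 3 counts where a family had 0 counts. The -S sum reached 8127 CPM in skin equivalent 2 and 77.7 CPM in skin equivalent 1, whereas the -K sum lay between 15987 and 23527 CPM in the 3 skin equivalents.

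The comparison of skin equivalents with confluent monolayers asked how the levels of these families differed between these cultures. In edgeR's quasi-likelihood fit over all features, 24 members had enough counts to be tested, 10 of the -S and 14 of the -C names. All 24 were called higher in skin equivalents (adjusted p under 0.05), where 25.9% of all features tested (3427 of 13230) were called higher and 3122 were called lower. Over all features the middle log2 fold change was -0.18 when scaled by total counts and 0.08 with TMM, and total counts gave 2517 features higher and 3918 lower, with 10 -S and 14 -C names again called higher. The groups did not overlap for any of the 24, which also held for 32.4% of all features tested. These members passed the filter on low counts through the skin equivalents alone, so only a rise could be called, and nothing is read from the count of calls. The other 11 members, all -S names, did not pass the filter. They had 7 to 271 counts in skin equivalent 2 and at most 22 counts in any other library.

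Most of the -S signal came from the names CBP52-S, CBP52L-S, CBP53-S, CBP54-S and CBP55-S, a set singled out after its values were seen. Each is a copy of the same kind of gene, and no separate role is annotated for it in the files. CBP53-S had 18.0, 1897 and 149 CPM in skin equivalents 1 to 3, against 0.0337, 0.176 and 0.115 CPM in monolayers 1 to 3. CBP52-S had 10.04, 1935 and 118 CPM in skin equivalents 1 to 3, against 0.135, 0.0586 and 0.0573 CPM in monolayers 1 to 3. CBP52L-S had 17.5, 1459.5 and 125 CPM in skin equivalents 1 to 3, against 0.0673, 0.0879 and 0 CPM in monolayers 1 to 3. In all of them skin equivalent 2 was the highest library, skin equivalent 3 came next and skin equivalent 1 was the lowest of the 3, though above every monolayer. CBP54-S had 10.2, 1464 and 123 CPM in skin equivalents 1 to 3, against 0.101, 0.0293 and 0 CPM in monolayers 1 to 3. CBP55-S had 8.01, 1256 and 61.2 CPM in skin equivalents 1 to 3, against 1.95, 0.293 and 0.286 CPM in monolayers 1 to 3. Among these 5 names the groups came closest in CBP55-S, and they did not overlap. In subconfluent keratinocytes these 5 names had 0.108 to 10.3 CPM, with the highest value in CBP55-S, and in fibroblasts they had 0 counts.

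The edgeR values of these 5 names are given as a description, since they were tested because of their level in skin equivalents, and their standard errors were large. The log2 fold change of CBP52-S was 12.98 ± 2.43 (SE, adjusted p = 0.00434), and it was 9.55 without skin equivalent 2. For CBP53-S it was 12.56 ± 2.20 (adjusted p = 0.00337), or 9.51 without skin equivalent 2. CBP52L-S had 13.25 ± 2.26 (adjusted p = 0.00300), with 10.34 without skin equivalent 2, 13.87 without monolayer 2 and 12.65 without monolayer 3. These folds rest on 5 to 11 counts over the 3 monolayers together, so their size is imprecise. CBP54-S, with 4 counts in the monolayers, had 13.54 ± 2.44 (adjusted p = 0.00376), or 10.54 without skin equivalent 2, 14.72 without monolayer 1 and 12.94 without monolayer 3. CBP55-S had 9.06 ± 2.18 (adjusted p = 0.0119), or 5.37 without skin equivalent 2 and 10.46 without monolayer 1. The calls of CBP52-S, CBP54-S and CBP55-S were lost with limma-voom (adjusted p = 0.0825, 0.0571 and 0.0886). That of CBP55-S was lost also in edgeR with the mark wo as a term (adjusted p = 0.0545) and with the replicate number as a term (adjusted p = 0.0683).

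The sixth -S name by level in skin equivalents, CBP50L-S, was set apart from those by its order among libraries. It had 5.98, 51.8 and 1.69 CPM in skin equivalents 1 to 3, with 0.161 CPM in subconfluent keratinocytes and 0 counts in each monolayer. Its edgeR value (adjusted p = 0.0125) is likewise given as a description. Taking 3 counts per library as the floor, CBP50L-S was at least 216-fold higher in skin equivalents. Without skin equivalent 2 the bound was 41.8-fold, and its call was lost among only the libraries marked wo (adjusted p = 0.0532). Skin equivalent 3 was here the lowest of the 3. The remaining tested -S names, CBP41-S, CBP44-S, CBP45-S and CBP48-S, stayed between 0.421 and 13.1 CPM in skin equivalents, against 0 to 0.168 CPM in monolayers. CBP48-S also lost its call among only the libraries marked wo (adjusted p = 0.0533).

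Of the -C family, the 6 names with the highest mean CPM in skin equivalents are given first. CBP11-C had 163, 499.5 and 113 CPM in skin equivalents 1 to 3, against 0.404, 0.0293 and 0.0573 CPM in monolayers 1 to 3. CBP5-C had 43.1, 406 and 60.8 CPM in skin equivalents 1 to 3, against 0.168, 0.0293 and 0 CPM in monolayers 1 to 3. CBP2-C had 14.4, 217 and 31.4 CPM in skin equivalents 1 to 3, against 0, 0 and 0.0573 CPM in monolayers 1 to 3. Skin equivalent 2 was again the highest library, but by a smaller factor than in the -S names from CBP52-S to CBP55-S. CBP1-C had 17.6, 189 and 24.9 CPM in skin equivalents 1 to 3, against 0.0673, 0.0293 and 0 CPM in monolayers 1 to 3. CBP3-C had 12.4, 183 and 19.0 CPM in skin equivalents 1 to 3 and 0 counts in the monolayers. CBP9-C had 23.8, 138 and 21.9 CPM in skin equivalents 1 to 3 and likewise 0 counts in the monolayers. For CBP9-C and CBP11-C skin equivalent 1 stood above skin equivalent 3, and for the other 4 of these names below it. In subconfluent keratinocytes CBP11-C had 2.10 CPM and the other 5 had 0 to 0.0807 CPM, and fibroblasts had 0 counts of each.

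The edgeR values of the -C names are also a description, since these names too were tested because of their level in skin equivalents. The log2 fold change of CBP11-C was 10.67 ± 1.08 (adjusted p = 0.000400), or 9.77 without skin equivalent 2 and 12.31 without monolayer 1. CBP5-C had 11.34 ± 1.47 (adjusted p = 0.00104), or 9.63 without skin equivalent 2, 13.06 without monolayer 1 and 10.73 without monolayer 3. CBP1-C and CBP2-C had 3 and 2 counts over the monolayers, too few for a fold (adjusted p by edgeR = 0.00130 and 0.00151). CBP3-C (adjusted p by edgeR = 0.00634) was at least 779-fold higher in skin equivalents, or 171-fold without skin equivalent 2. CBP9-C (adjusted p by edgeR = 0.00264) was at least 670.2-fold higher, or 249-fold without skin equivalent 2. At the other end, CBP14-C was the -C name with the least signal, at 0.958, 6.88 and 1.34 CPM in skin equivalents 1 to 3, against 0.269, 0.0293 and 0 CPM in monolayers 1 to 3. Its call (adjusted p = 0.0162) was lost without monolayer 2 (adjusted p = 0.0543). The remaining -C names, CBP4-C, CBP6-C, CBP7-C, CBP8-C, CBP10-C, CBP12-C and CBP13-C, had means of 9.95 to 53.7 CPM in skin equivalents, and each had 6 or fewer counts in the monolayers together.

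**Figure D2:**
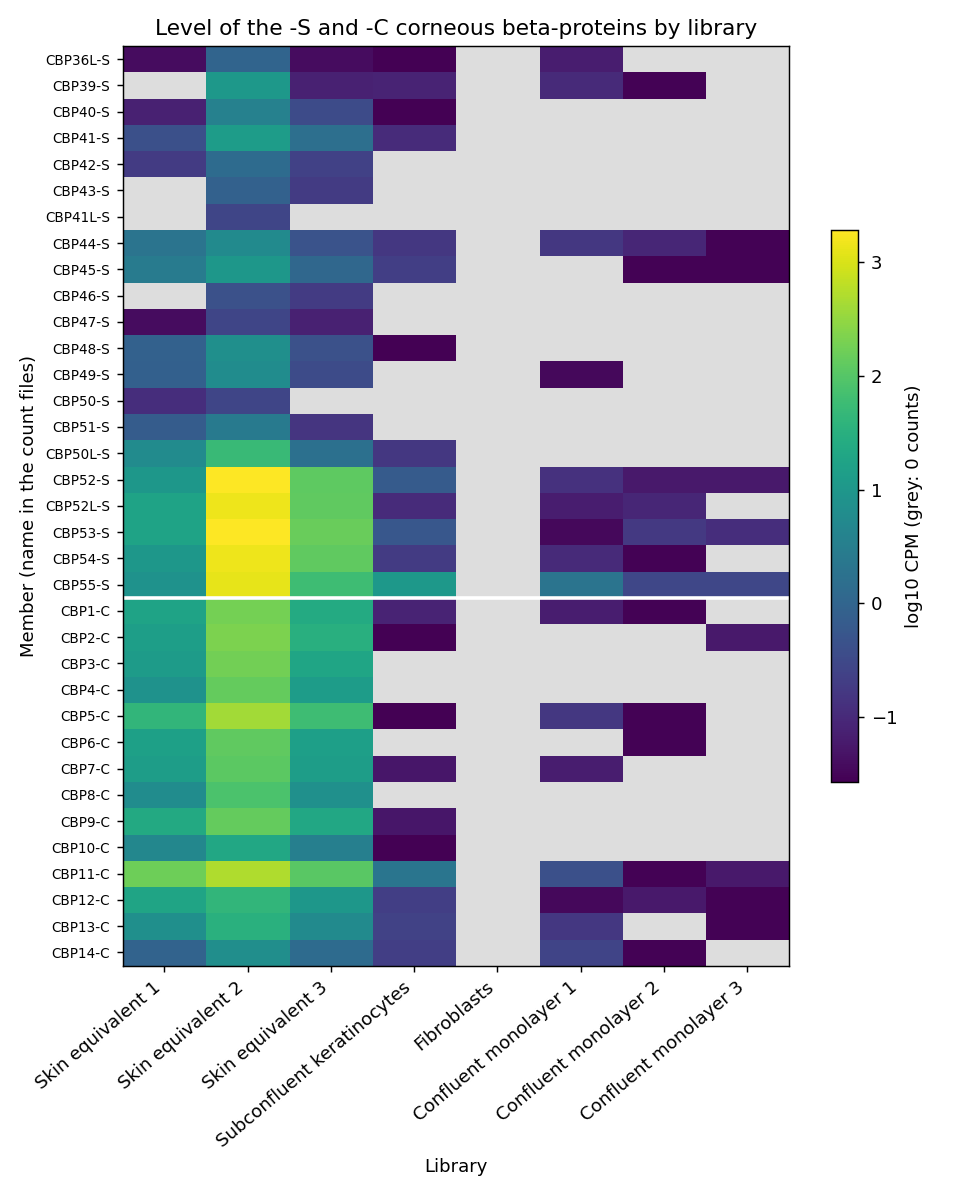
Level of each of the 35 members (rows, in the order of the files, -S above and -C under the white line) in each library (columns), as log10 CPM, with grey cells for 0 counts. The rows from CBP52-S to CBP55-S reach 1256 to 1935 CPM in skin equivalent 2, and the fibroblast column is grey throughout.

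Although labelled as replicates, the 3 skin equivalents differed widely in these families. All 35 members were highest in skin equivalent 2. Of the 29 members with at least 1 CPM in a skin equivalent, 24 were at least 4-fold higher in skin equivalent 2 than in both other skin equivalents, 12 of 15 -S and 12 of 14 -C names. Over all 12065 features with at least 1 CPM in a skin equivalent the share was 1.64%, and 30.8% were highest in skin equivalent 2 by any amount. Skin equivalents 1 and 3 were the 4-fold highest library for 0.696% and 0.232% of features, and for 0 members. CBP39-S, CBP40-S, CBP42-S, CBP48-S, CBP49-S and CBP51-S reached 1 CPM in skin equivalent 2 alone. For these names the 1 CPM rule fixed the highest library in advance, and all but CBP51-S are among the 24. The same rule was applied to all features. Since each skin equivalent is a single library, these ratios have no replicate check and no test.

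**Figure D3:**
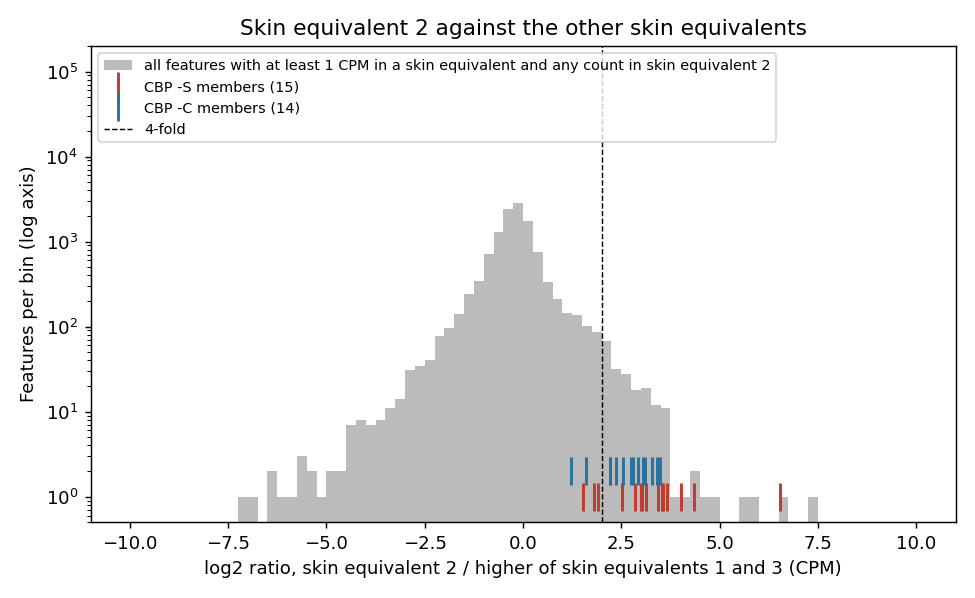
Distribution of the log2 ratio of the CPM in skin equivalent 2 to the higher of skin equivalents 1 and 3, over 12060 features (grey bars, log axis), with 1 tick for each of the 15 -S and 14 -C members that reached 1 CPM. All ticks lie right of 0, and 24 lie at or beyond the dashed line at 4-fold.

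The family sums differed between skin equivalents by unequal factors. For the summed -S names skin equivalent 2 had 105 times the level of skin equivalent 1 (95% counting interval 100.1 to 109) and 13.9 times that of skin equivalent 3 (13.7 to 14.1). For the summed -C names these ratios were 6.31 (6.17 to 6.45) and 6.47 (6.33 to 6.62). The -S factor over skin equivalent 1 was carried by the 5 names from CBP52-S to CBP55-S. The sum of the 16 other -S names in skin equivalent 2 was 8.16 times that in skin equivalent 1 (7.32 to 9.12). Over skin equivalent 3 this did not hold, with a ratio of 16.5 (14.2 to 19.2) for the 16 other names and 13.9 (13.6 to 14.1) for the 5. Taken name by name, the median ratio of skin equivalent 2 to skin equivalent 1 was 8.67 over the 17 -S names with a count in skin equivalent 1. Over only the 10 tested -S names it was 57.4, and over the 14 -C names, all tested, it was 8.43. The 4 -S names with 0 counts in skin equivalent 1 have no ratio. Skin equivalents 3 and 1 differed by 7.52-fold in the -S sum (7.18 to 7.88) and had a ratio of 0.976 in the -C sum (0.948 to 1.005). There were 0.223, 3.69 and 1.72 -S counts per -C count in skin equivalents 1 to 3, so -S names had fewer counts than -C names in skin equivalent 1 and more in the other two. The intervals express counting error alone, since each skin equivalent is a single library. An interval that excludes 1 therefore does not cover the spread between cultures. No molecular identifiers are named for these reads, so duplicate fragments are not set apart and the intervals may be too narrow.

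Within the -S family the copies fell into different patterns. For the names from CBP52-S to CBP55-S, skin equivalent 2 held 83.5 to 193 times the level of skin equivalent 1, and skin equivalent 3 held 7.17 to 12.2 times that level. Of the tested names, CBP44-S, CBP45-S and CBP50L-S went the other way between skin equivalents 3 and 1, with ratios of 0.236, 0.401 and 0.282. CBP49-S and CBP51-S, not tested, did so too, with ratios of 0.410 and 0.223. Each of these names had an interval below 1. The summed level of the 16 other -S names was 14.1, 115 and 6.98 CPM in skin equivalents 1 to 3. Their ratio of skin equivalent 3 to skin equivalent 1 was 0.495 (0.412 to 0.593), against 9.07 (8.62 to 9.55) for the 5 names from CBP52-S to CBP55-S. CBP41-S, with 0.421, 13.1 and 1.61 CPM in skin equivalents 1 to 3, had a ratio of skin equivalent 3 to skin equivalent 1 of 3.82 (1.93 to 8.23), the only interval above 1 among those 16. CBP39-S, not tested, had 271 counts in skin equivalent 2, 0 in skin equivalent 1 and 2 in skin equivalent 3.

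Among -C names the ratio of skin equivalent 2 to skin equivalent 1 ranged from 2.32 in CBP12-C to 17.1 in CBP4-C. The ratio of skin equivalent 3 to skin equivalent 1 ranged from 0.553 in CBP12-C to 2.19 in CBP2-C. Names with low numbers, from CBP1-C to CBP5-C, had more in skin equivalent 3 than in 1, with ratios of 1.41 to 2.19, whereas CBP10-C to CBP13-C had less, with ratios of 0.553 to 0.785, all with intervals that exclude 1. CBP6-C, CBP7-C, CBP8-C, CBP9-C and CBP14-C had intervals that include 1. The numbers are those of the names in the files, and positions in the genome are not used here.

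**Figure D4:**
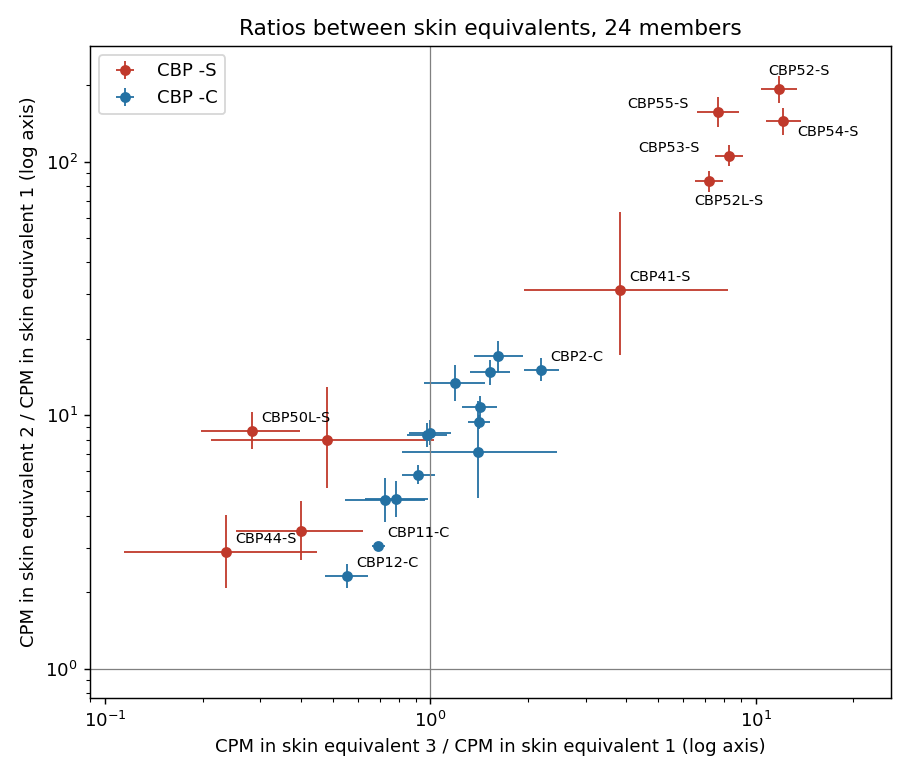
Ratio of CPM in skin equivalent 2 to skin equivalent 1 against the ratio in skin equivalent 3 to skin equivalent 1 (both log axes) for the 24 tested members, with 95% counting intervals as bars. The names from CBP52-S to CBP55-S sit at 7.17 or more on the horizontal axis and 83.5 or more on the vertical axis, and the -C names between 0.553 and 2.19 on the horizontal axis.

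The -K, -EDC, Krt9L and Krt78L families were highest in other libraries by their sums, while many of their single names were highest in skin equivalent 2. The Krt78L sums were close, at 51240 and 52024 CPM in skin equivalents 2 and 3, and the basal keratin sum was highest in skin equivalent 2. The -K names summed to 15987, 20829 and 23527 CPM in skin equivalents 1 to 3, and names ending in -EDC to 22517, 7282 and 10988 CPM. The ending -EDC is taken to stand for the epidermal differentiation complex. It does not tell which other features, such as the CBP names, belong to that complex. Among names with at least 1 CPM, 9 of 15 -K, 6 of 8 Krt78L, 4 of 7 Krt9L and 6 of 27 -EDC names were highest in skin equivalent 2. By at least 4-fold, 4 of the -K names and 2 of the -EDC names were, and 8 -EDC names were 4-fold higher in skin equivalent 1. LOR2-EDC, named after loricrin of the cornified envelope, had 963, 94.8 and 169 CPM in skin equivalents 1 to 3, an order opposite to that of the -S names between equivalents 1 and 2. LOR1-EDC had 946, 719 and 1282 CPM in skin equivalents 1 to 3. The -K names with the highest CPM, CBP63-K and CBP62-K, had 8763, 8091 and 13415 CPM and 5755.0, 6918 and 6401 CPM in skin equivalents 1 to 3.

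The -K names that did stand out in skin equivalent 2 were CBP37-K, CBP38-K, CBP15-K and CBP16-K, named here after their values were seen. CBP38-K had 0.996, 522 and 9.55 CPM, CBP37-K 0.881, 482 and 9.48 CPM, CBP15-K 66.5, 880.5 and 164 CPM, and CBP16-K 0.498, 35.6 and 4.14 CPM in skin equivalents 1 to 3. Skin equivalent 3 came next and skin equivalent 1 last in each, the order also seen from CBP52-S to CBP55-S. By number these names adjoin the -S and -C names, with CBP37-K and CBP38-K between CBP36L-S and CBP39-S, and CBP15-K and CBP16-K after CBP14-C. Outside the CBP names the features of this kind with a name were Krt78L4, Krt78LC1, Krt78LC2, Krt5L3, EDMTF1-EDC and EDMTF3-EDC. In all, 34 of 105 named features with at least 1 CPM in a skin equivalent were at least 4-fold higher in skin equivalent 2. Of the 34, 24 were -S or -C names. A further 164 features without a name were 4-fold higher there too. Over all 12065 features with at least 1 CPM in a skin equivalent the share was 1.64%.

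Fragments mapping to several places made up 7.06%, 8.66% and 8.37% of skin equivalents 1 to 3, against 4.45% to 4.59% of monolayers. The files give these fragments a line of their own, apart from the gene counts. The processing notes name STAR and RSEM, which shares such fragments among genes, and do not state which made the counts. Whole numbers with such a separate line are the layout of STAR's gene counts, which leave these fragments out. Values of similar copies are therefore uncertain, and the part of multimapping in these results was not tested. The simple-epithelium keratins Krt7, Krt8, Krt18 and Krt19 summed to 102, 98.9 and 78.3 CPM in skin equivalents 1 to 3, against 3116 to 5211 CPM in monolayers. Skin equivalent 2 had 1.30 times the summed level of the differentiated list and 1.42 times that of the basal list in skin equivalent 1. Whether marker levels or the title code 34 of skin equivalent 2 play a part in the -S and -C levels was not tested. Among the skin equivalents, only the title of skin equivalent 1 lacks the mark wo and holds a d number, 7. Ratios to skin equivalent 1 cannot be told apart from these title marks.

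The share of its family's counts differed between cultures for some copies and overlapped for others. In skin equivalents 1 to 3 CBP55-S held 10.3%, 15.5% and 10.5% of -S counts, while in subconfluent keratinocytes it held 81.5% and in monolayers 1 to 3 it held 73.4%, 37.0% and 55.6% of only 79, 27 and 18 counts. CBP53-S held 23.1%, 23.3% and 25.5% of -S counts in skin equivalents 1 to 3, 4.47% in subconfluent keratinocytes and 1.27%, 22.2% and 22.2% in monolayers 1 to 3. CBP11-C held 46.8%, 22.7% and 33.2% of -C counts in skin equivalents 1 to 3, 69.0% in subconfluent keratinocytes and 34.3%, 14.3% and 33.3% of 35, 7 and 6 counts in monolayers 1 to 3. The shares of skin equivalents and monolayers thus overlapped for CBP11-C, lay close for CBP53-S in monolayers 2 and 3, and did not overlap for CBP55-S. These are shares of counts that are not divided by transcript length, which the files do not give, so they do not rank transcript levels between copies. Between libraries the order of the members was alike: across the 21 -S names the Spearman correlation of CPM was 0.825 between skin equivalents 2 and 1 and 0.896 between 2 and 3, and across the 14 -C names it was 0.727 and 0.960. These correlations are given as a description and were not tested.

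**Figure D5:**
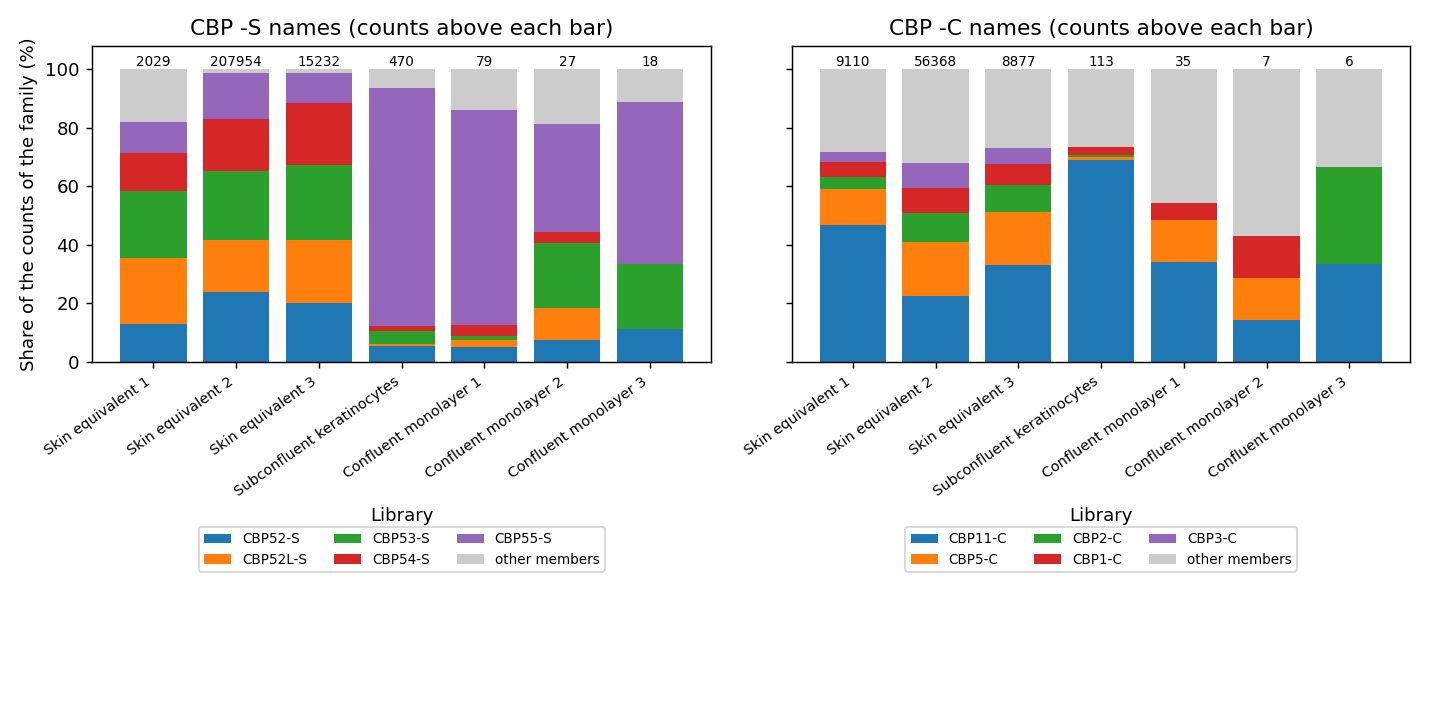
Share of each family's counts held by named copies (stacked bars, in percent) in the 7 libraries with any count, -S names at left and -C names at right, with the number of counts above each bar. CBP55-S fills 81.5% of the -S bar in subconfluent keratinocytes and 10.3% to 15.5% of the bars of skin equivalents.

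Keratinocytes before confluence were compared with confluent monolayers with 1 model for the 8 libraries, so the single subconfluent library is taken to vary as much as the replicated groups do. The subconfluent library held 470 -S counts and 113 -C counts, or 12.6 and 3.04 CPM, which is 0.00128% (95% Clopper-Pearson interval 0.00117% to 0.00140%) and 0.000308% (0.000254% to 0.000370%) of its gene counts. Most of these came from CBP55-S, with 10.3 CPM in subconfluent keratinocytes against 1.95, 0.293 and 0.286 CPM in monolayers 1 to 3, and from CBP11-C, with 2.10 CPM against 0.404, 0.0293 and 0.0573 CPM. Both were thus above every monolayer, and CBP55-S was also above its 8.01 CPM in skin equivalent 1. Of 32 members in the fit, 7 had 0 counts in the subconfluent library and in every monolayer and could not be called. Of the 25 others 0 were called in either direction by edgeR, where 0.606% of all features tested were called higher and 0.726% lower. CBP6-C, CBP10-C, CBP40-S, CBP48-S and CBP49-S had 1 count in 1 of these libraries and 0 in the rest, too few for a call. Apart from CBP52-S, CBP53-S, CBP55-S and CBP11-C, the members passed the filter on low counts through the skin equivalents alone. Nothing is read from the count of 0. The spread in this fit came in part from the skin equivalents, where these members differed widely. The lack of calls therefore does not show that there was no difference. At an unadjusted p under 0.05, edgeR gave 1 member, CBP11-C, where 12.7% of all features tested were higher at that level. Its log2 fold change was 3.72 ± 1.11 (adjusted p = 0.110), or 5.36 without monolayer 1. DESeq2 called it (adjusted p = 0.0134), and by DESeq2 680 of 15019 features were called higher and 1230 lower, far more than by edgeR. By limma-voom 0 members were called, with 150 features called higher and 198 lower. Over all alternatives the adjusted p of CBP11-C ranged between 0.0134 and 0.281. The log2 fold change of CBP55-S by edgeR was 3.63 ± 2.04 (adjusted p = 0.319), or 5.02 without monolayer 1. The titles of the subconfluent library and of monolayer 1, the monolayer with the most counts of both families, share the code 20, and whether this code plays a part was not tested.

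Fibroblasts, the cells of the dermis, had 0 counts for each of the 35 members among 28767054 gene counts, which allows up to 0.116 CPM per member at 3 counts. In monolayers 16 members likewise had 0 counts in all 3 libraries, 11 -S and 5 -C names, and only 9, 4 and 2 members reached 3 counts in monolayers 1 to 3. At this depth a difference between fibroblasts and monolayers was therefore not detectable for most members. Subconfluent keratinocytes had at least 3 counts for 15 members.

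None of the 35 members was silent in the sense of fewer than 3 counts in each of the 8 libraries. Likewise 0 of 15 -K names and 1 of 35 -EDC names were silent, so this is not particular to the -S and -C names. By contrast, 14 of 20 -F names and 30.8% of all features were silent. That no -S or -C name was silent rests on skin equivalent 2 for 3 members. CBP36L-S, CBP41L-S and CBP47-S had 25, 7 and 7 counts there and at most 2 in any other library. CBP41L-S had 0 counts in the 7 other libraries. CBP50-S and CBP46-S were nearly as low, with 7 and 11 counts in skin equivalent 2 and at most 3 and 5 elsewhere. At least 3 counts were found for 28, 35 and 30 members in skin equivalents 1 to 3, and the members at 0 counts in skin equivalents 1 (4 members) and 3 (2 members) were all -S names. A copy with few counts can differ from its neighbours in its level or in how many fragments map to it alone, and these cannot be told apart here.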

How the data were processed

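The deposited files hold counts per feature made by the authors, whole numbers without normalisation, for 24902 features plus 4 lines of fragments without a gene. Of tools, the submitters' processing notes list STAR 2.6.1a, DESeq2 1.22.2, RSEM and bcl2fastq 2.19.1.403 and no role. Genome build, annotation and strand setting were not given in the sources used here. No coordinates are printed, and overlapping or antisense genes cannot be told apart. Per the labels, libraries were made from poly(A) RNA with a strand-preserving kit. Between 64.5% and 71.3% of fragments were counted to a gene, and the 4 other lines stayed out of library sizes and tests.

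Differences were tested in R 4.3.3 with edgeR 4.0.16, by its quasi-likelihood test (robust dispersion, TMM scaling, default filter, Benjamini-Hochberg adjustment over all features at 0.05), with DESeq2 1.42.0 and limma 3.58.1 (voom) as alternatives. All were also run on simulated counts with a single common spread and smaller fold changes than those of the members. That run therefore does not cover values like theirs. Skin equivalents and monolayers were fitted as 6 libraries, and the subconfluent comparison as 8. A standard error is the size of the log2 fold change over the square root of F. Ratios between single libraries have exact 95% counting intervals, and for fold bounds a group at 0 counts was set to a floor of 3 counts per library. Values in each skin equivalent and monolayer are given for the 6 -S and 6 -C names with the highest mean CPM in skin equivalents. In subconfluent keratinocytes most of these names are given by range. The silent members are named, and others are given by range, with exceptions marked or chosen as extremes. Members, lists and tests were chosen with earlier results of these data known.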

Additional observations from a re-analysis of the deposited data

How the results depend on the processing

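The number of -S names called higher in skin equivalents was 10 in the reported fit and 5 when 50 counts in 3 libraries were required, which left only 5 of them to test. With no filter it was 15 of 21 tested (all features 3486 of 19227), and in the fit of all 8 libraries 14 of 18 (3550 of 15019). With limma-voom it was 7 of 10 (3447 of 13230), and among only the libraries marked wo 8 of 10 (3621 of 13384). Leaving out 1 library at a time gave 10 to 12 -S names, all that were tested, and 13 to 14 of 14 -C names. In these fits 2517 to 3301 of 13549 to 13613 features were called higher. With the replicate block, 9 of 10 -S and 14 of 14 -C names were called higher (all features 3097 of 13230). There CBP55-S lost its call (log2 fold change 7.34, adjusted p = 0.0683). Deviations from the group means had correlations of -0.08, -0.16 and 0.16 between the groups for replicate numbers 1, 2 and 3. With 3 libraries in a group these correlations cannot decide whether libraries that share a title code are paired. DESeq2 called 11 -C names higher (all features 3394 of 13230) and gave no adjusted p for the other 3. In the subconfluent comparison DESeq2 called 1 member higher, against 0 in the reported fit. All features called higher numbered 680 by DESeq2 and 91 in the reported fit, of 15019 each. With an 8-fold threshold 14 members were higher in skin equivalent 2 than in both others, against 24 at 4-fold. Dividing by the summed -K counts, chosen after seeing the data, gave 22. The number of silent members was 3 with a limit of 10 counts, and 3 without skin equivalent 2, also chosen after seeing the data. The mean -S sum ranged over single libraries left out from 331 to 4355 CPM in skin equivalents and from 0.653 to 1.73 CPM in monolayers, and the -C sum from 345 to 1276 CPM in skin equivalents and from 0.188 to 0.692 CPM in monolayers. The log2 fold changes of the 12 members chosen by their mean CPM in skin equivalents kept their sign under each alternative that was run. That choice favoured a positive sign from the start, so nothing is read from it. Depth limits all statements on monolayers, where a family had 6 to 79 counts.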

Other observations

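Among keratins, the names outside the corneous beta-proteins that stood at least 4-fold higher in skin equivalent 2 than in both other skin equivalents were of the Krt78L and Krt5L kind, named here after their values were seen. Krt78L4 had 35.02, 1284 and 122 CPM, Krt78LC1 had 0.115, 92.0 and 0.575 CPM, and Krt5L3 had 3.37, 41.0 and 2.42 CPM in skin equivalents 1 to 3. Each comes from single libraries, with no test.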
